A study of Rattus norvegicus with 6 samples.

Results

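The resting repertoire of tRNA fragments was described in the hippocampus of saline-treated rats. The hippocampus is a part of the brain needed to form memories. The members were chosen by label alone: the 3 libraries of saline-treated rats out of the 6 libraries of the series, with all 615 fragments that the deposited lists name. The 3 rats were Sprague-Dawley animals aged 6 to 8 weeks, given saline and numbered 1 to 3 in the labels, with 1 library per rat and no engineered allele named. The other 3 libraries came from rats of the same strain and age given nicotine, and they were not compared here. Each library held small RNAs from total RNA, joined to adapters at both ends, reverse-transcribed, amplified and cut from a gel. The lists hold tRNA fragments alone, so the tissue label could not be checked against marker genes. Arg-TCT-4, a tRNA gene known in mice for expression limited to the nervous system, had no fragment listed under its name.

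Transfer RNAs are cut by nucleases into stable shorter RNAs. A cut in the anticodon loop, made in stress by angiogenin among others, leaves a 5' piece and a 3' piece. A cut in the T loop leaves a short 3' fragment that carries the CCA tail added to every mature tRNA, and a cut in the D loop leaves a short 5' fragment. The end-processing enzyme RNase Z releases the trailer, the stretch that follows the mature tRNA in its precursor and that lacks CCA. The 4 kinds were therefore told apart by the position in each fragment's name: 5' fragments start at base 1, 3' fragments end in the tail of the mature tRNA, trailers are numbered from the first base after it, and internal fragments reach neither end. A parent tRNA is written as amino acid and anticodon, with mt for the mitochondrial genome and iMet for the initiator methionine tRNA. No tRNA sequence was available in the sources used here, so fragments are given by parent, start, end and length. Positions count bases along each tRNA and are not the standard tRNA numbering.

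The files give levels in CPM, reads per 1000000 reads of the library, and the values proved to be whole multiples of what 1 read was worth in each library. That gave library totals of 374763, 154414 and 206221 reads for saline 1, 2 and 3. Listed fragments took 257794, 93806 and 108724 of those reads, or 68.8%, 60.7% and 52.7%. Saline 1 was the deepest library and had the largest listed share. Of the 615 fragments, 495 had reads in all 3 saline libraries, 82 in only 2, 23 in only 1 and 15 in none. A count of 0 in all 3 libraries allowed up to 4.08 CPM, the value of 3 reads over their joint total. The number of fragments read was 576, 542 and 554, and 506, 542 and 546 after thinning each library to 93806 listed reads. Every listed fragment reached 20 CPM in at least 1 of the 6 libraries, and 165 of them did so only in nicotine libraries, so the list itself limits what could be seen. The shares below are shares of listed reads unless stated otherwise, and their intervals cover counting error only.

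The listed repertoire was mostly 5' fragments. They took 94.7%, 91.2% and 91.4% of listed reads in saline 1, 2 and 3 (92.4% ± 1.96, SD, n = 3). Trailers took 2.76%, 4.94% and 4.97% (4.22% ± 1.27). The 3' fragments took 2.495%, 3.78% and 3.56% (3.28% ± 0.686), and internal fragments 0.0547%, 0.0544% and 0.0920% (0.0670% ± 0.0216). The 95% Wilson intervals of these shares reached at most 0.181 percentage points to either side. The list held no nuclear 3' fragment longer than 22 nt and no fragment of any kind longer than 40 nt. The 3' pieces left by a cut in the anticodon loop of nuclear tRNAs could thus be missed where the 5' pieces were seen. How far this shapes the balance of the kinds was not tested. Trailers ranked above 3' fragments in each of the 3 rats. In whole tissue, the number of cells that give a fragment and the amount each gives cannot be told apart. With 3 rats an exact paired two-sided test cannot go below p = 0.25, so no test of that order was made.

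By number of fragments the picture was more even than by reads. The list held 303 fragments of the 5' kind, 182 of the 3' kind, 117 trailers and 13 internal fragments. Only 2 fragments made up 50% of the listed reads in each library. Those that made up 90% numbered 17, 29 and 31, and those that made up 99% numbered 205, 256 and 269. By the counts at 90% and 99%, reads were thus spread over the most fragments in saline 3 and over the fewest in saline 1.

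Length split the kinds further. The 5' fragments of 27 to 32 nt, which end in or just before the anticodon loop, held 87.3%, 84.3% and 80.8% of listed reads. Those of 33 to 35 nt held 5.70%, 4.23% and 7.55%. The short 5' fragments were far rarer, with 1.53% ± 0.425 at 20 to 24 nt and 0.922% ± 0.236 at 14 to 16 nt (SD, n = 3 each). Among 3' fragments, 2.67% ± 0.548 of listed reads were at 17 to 18 nt and 0.552% ± 0.125 at 19 to 22 nt. The listed 5' names leave out 17 to 19, 21 and 25 to 26 nt, so no level is known at those lengths.

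**Figure D1:**
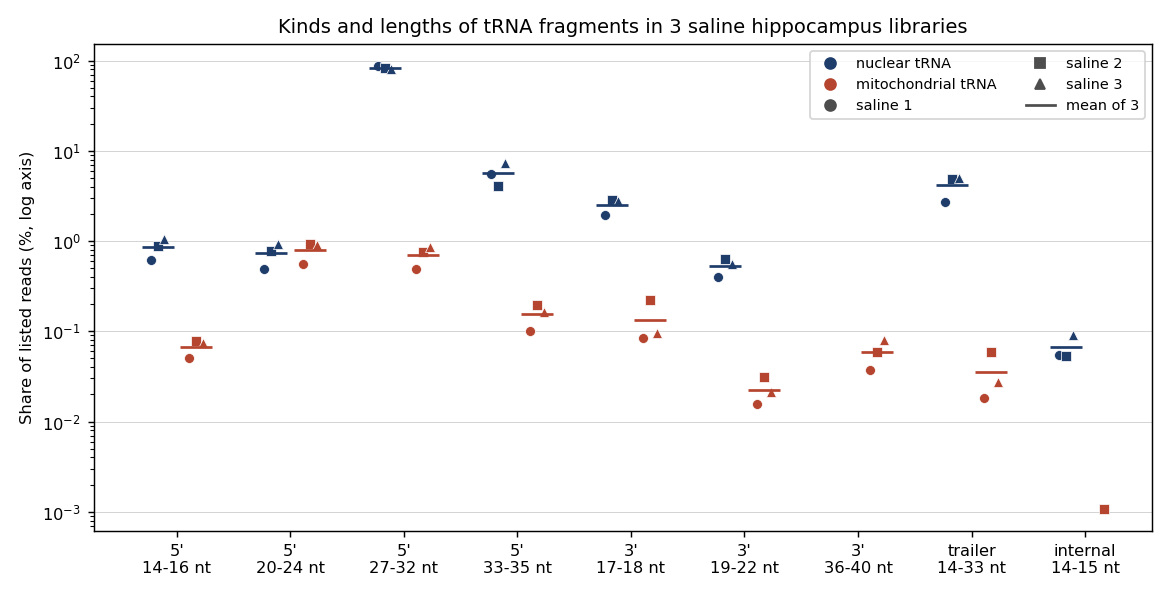
Share of listed reads (percent, log axis) held by each kind and length class, nuclear and mitochondrial apart, with 1 point per saline library and a line at their mean; a share of 0 cannot be drawn on a log axis and is left out. Nuclear 5' fragments of 27 to 32 nt sit near the top in all 3 libraries, and every other class lies at 7.39% or lower.

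Nuclear glycine tRNAs carried most of the repertoire. All nuclear Gly fragments together took 84.2%, 78.4% and 75.4% of listed reads (79.3% ± 4.45). Gly-CCC alone took 76.9%, 71.4% and 67.2% (71.8% ± 4.86), and Gly-GCC took 7.23%, 6.87% and 8.03% (7.38% ± 0.596). The Gly-CCC share was highest in saline 1 and lowest in saline 3, the order of the listed share of each library. Both glycine tRNAs start with almost the same bases in mammals, which makes the split of reads between their names uncertain and leaves their sum unaffected.

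The rest of the repertoire was less one-sided once glycine was set aside. Among the fragments of other amino acids, 5' fragments held 67.7%, 60.8% and 66.3% of reads (64.9% ± 3.66). Trailers held 17.02%, 22.3% and 19.5% (19.6% ± 2.67), and 3' fragments 14.9%, 16.6% and 13.9% (15.1% ± 1.39). The order of the kinds was the same with and without glycine in every rat.

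After the glycine tRNAs came Lys-CTT and Glu-CTC, both read at 99.9% on average as 5' fragments, and Val-AAC, read at 90.8% as 5' fragments. Lys-CTT held 2.94%, 2.04% and 5.04% of listed reads and was the least even of the 3 between rats. Glu-CTC held 1.77%, 2.88% and 2.66%. Val-AAC held 2.28%, 2.56% and 2.27%. The next parent, the initiator iMet-CAT, held 1.53%, 2.73% and 1.84%, almost wholly as trailers. His-GTG summed to 3717, 8704 and 9713 CPM in saline 1, 2 and 3, so saline 1 held less than each of the other rats by a wide margin. The others among the 10 highest parents were Glu-TTC (1.20% ± 0.186), Arg-ACG (1.11% ± 0.538) and mt-Ser-GCT (0.853% ± 0.230).

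The list named 67 parent tRNAs, 46 nuclear and 21 mitochondrial, for 20 amino acids. The 52 parents with at least 50 reads over the 3 libraries, 39 nuclear and 13 mitochondrial, are described here. A 5' fragment was the leading kind in 26 of them, a 3' fragment in 17 and a trailer in 9; none was led by internal fragments. Of the mitochondrial parents 11 were led by 5' fragments, 2 by 3' fragments and 0 by trailers, and of the nuclear parents 15, 15 and 9. This difference was not tested, and the list limits it. No 5' fragment was listed for 10 of the 39 nuclear and 0 of the 13 mitochondrial parents. No trailer was listed for 15 and 9 of them, and no 3' fragment for 1 and 4. The leading kind held on average over 90% of the reads in 21 parents. It was the same in all 3 rats for 47 of the 52. The largest 95% Wilson half-width of a leading share in 1 library was 12.2 percentage points for parents with 200 reads or more and 36.5 points for all 52.

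**Figure D2:**
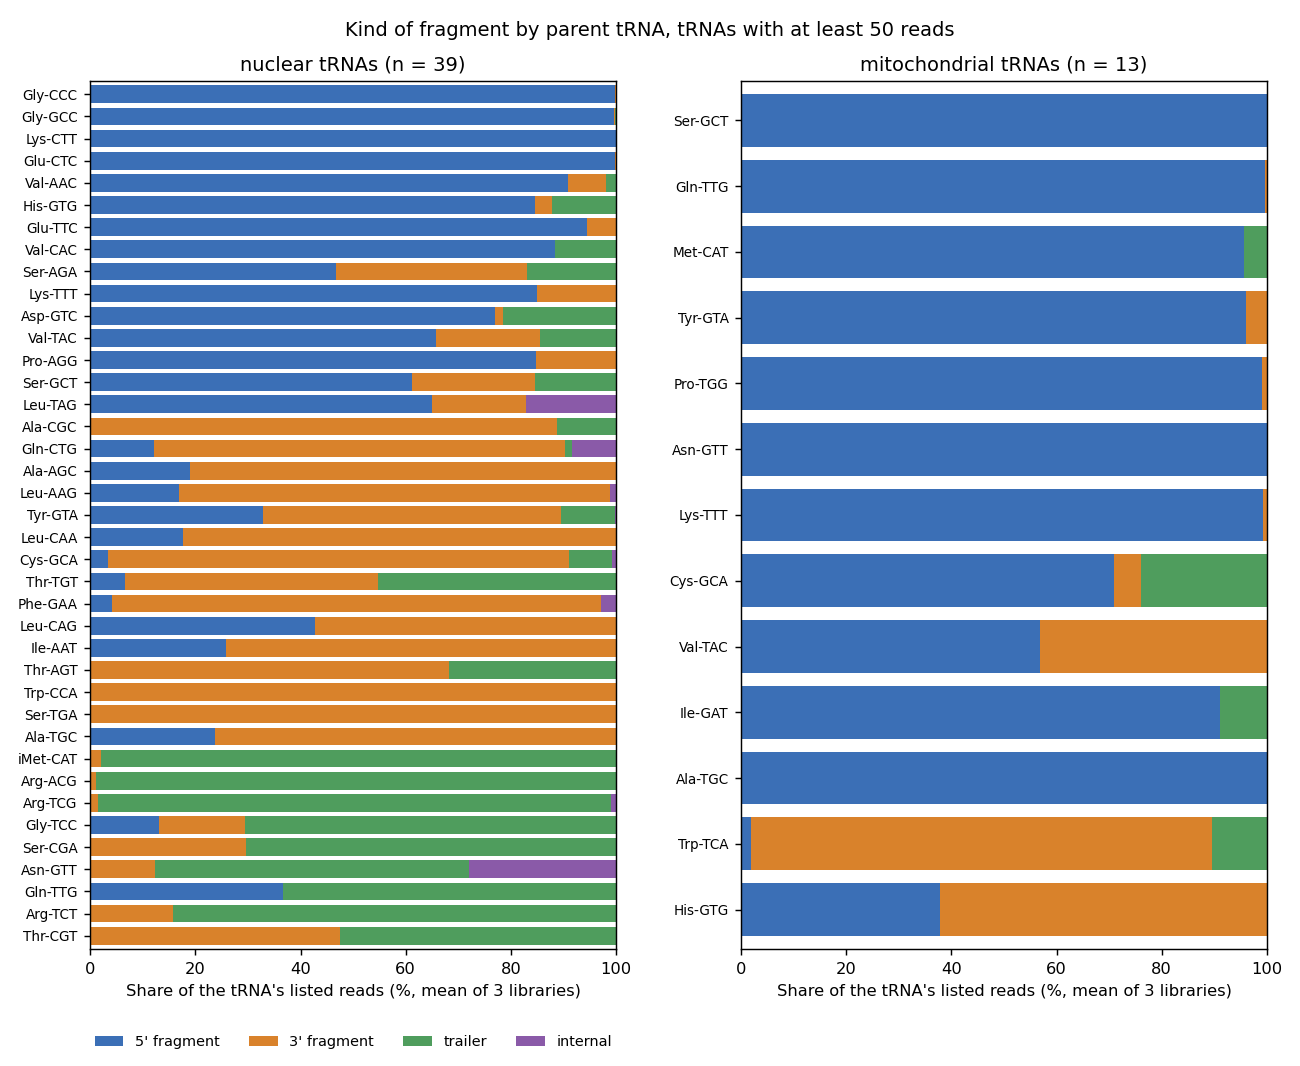
Mean share of each parent's listed reads held by the 4 kinds (percent, stacked bars, mean of the 3 saline libraries), for the parents with at least 50 reads. Gly-CCC and mt-Ser-GCT are nearly all 5' fragment, Ala-CGC is mostly 3' fragment (88.8%), and iMet-CAT and Arg-ACG are nearly all trailer (97.9% and 98.9%).

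Isoacceptors, tRNAs for the same amino acid with different anticodons, did not always share their leading kind. The kinds are those of the reads listed under each name, and sharing of reads between isoacceptors was not tested. Gly-CCC and Gly-GCC were read as 5' fragments at 99.8% ± 0.0346 and 99.6% ± 0.110, whereas Gly-TCC was led by trailers at 63.2%, 69.5% and 78.9%. Gln-CTG was led by 3' fragments (78.2% ± 4.72), and Gln-TTG by trailers in saline 1 and 2 but evenly split in saline 3. Val-AAC, Val-CAC and Val-TAC were all led by 5' fragments, at 90.8% ± 1.14, 88.3% ± 5.63 and 65.8% ± 0.977. Lys-CTT and Lys-TTT likewise shared the 5' kind, at 99.9% ± 0.0696 and 84.9% ± 1.96.

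The most abundant fragment was the 5' fragment of Gly-CCC that ends at base 32, with 312875, 225265 and 225845 CPM in saline 1, 2 and 3. The one ending at base 31 had 176704, 164182 and 103103 CPM, and the one ending at base 30 had 30718, 33909 and 18960 CPM. Saline 1 was high for the end at base 32 and saline 3 was low for the ends at bases 31 and 30. As shares of the 5' reads of Gly-CCC, base 32 took 59.3%, 52.1% and 64.0%, base 31 took 33.5%, 37.98% and 29.2%, and base 30 took 5.83%, 7.85% and 5.39%. The order of these 3 ends was the same in all rats. Ends at other listed bases, from 14 to 33, took under 1% each on average.

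Reads named Gly-GCC stopped at the same bases, with a further main end at base 33. Under the name Gly-GCC-1 only 1 fragment was listed, the one ending at base 33. No shorter end could be seen under that name, and the shares by base below mix the Gly-GCC names. Its highest fragments were those named Gly-GCC-2 that end at base 32 (22859.8, 15193 and 23819 CPM) and base 31 (13112, 14442 and 9407 CPM) and the one named Gly-GCC-1 that ends at base 33 (9876, 7622 and 6188 CPM). Base 32 held 46.1%, 36.6% and 56.4% of its 5' reads, base 31 held 26.5%, 34.8% and 22.3%, and base 33 held 20.6%, 18.9% and 15.7%. The reads ending at base 31 per read ending at base 32 were 0.574, 0.951 and 0.395 for Gly-GCC and 0.564, 0.729 and 0.456 for Gly-CCC. For both tRNAs this ratio was highest in saline 2 and lowest in saline 3.

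Other parents stopped at other bases. Lys-CTT fragments ended mainly at base 34, with 85.4%, 78.7% and 91.3% of 5' reads. Val-CAC also ended at base 34, with 83.6%, 71.9% and 79.1%, while Val-AAC ended at base 32, with 62.1%, 57.0% and 41.8%. These are ends of the reads under each name, and how reads are split between the valine names was not tested. Val-AAC had a second end in the D-loop region at base 23, which took 13.3%, 21.4% and 32.6% and so was largest where base 32 was smallest. In level, the Val-AAC fragment ending at base 32 had 8763, 7914 and 4384 CPM, lowest in saline 3. His-GTG ended at base 31, with 62.3%, 76.0% and 72.9%.

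In the glutamate tRNAs the 5' reads were spread over several ends. Glu-CTC ended at base 31 in 33.6%, 45.0% and 41.6% of its 5' reads, with 21.7% ± 1.48 at base 30 and 12.7% ± 4.90 at base 34. Its fragment ending at base 31 had 3864, 7674 and 5693 CPM, lowest in saline 1. Glu-TTC led at base 31 in saline 2 and 3 with 30.2% and 46.1%, but at base 32 in saline 1 with 27.1% against 18.2% at base 31. Its preferred end was thus not the same in every rat.

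**Figure D3:**
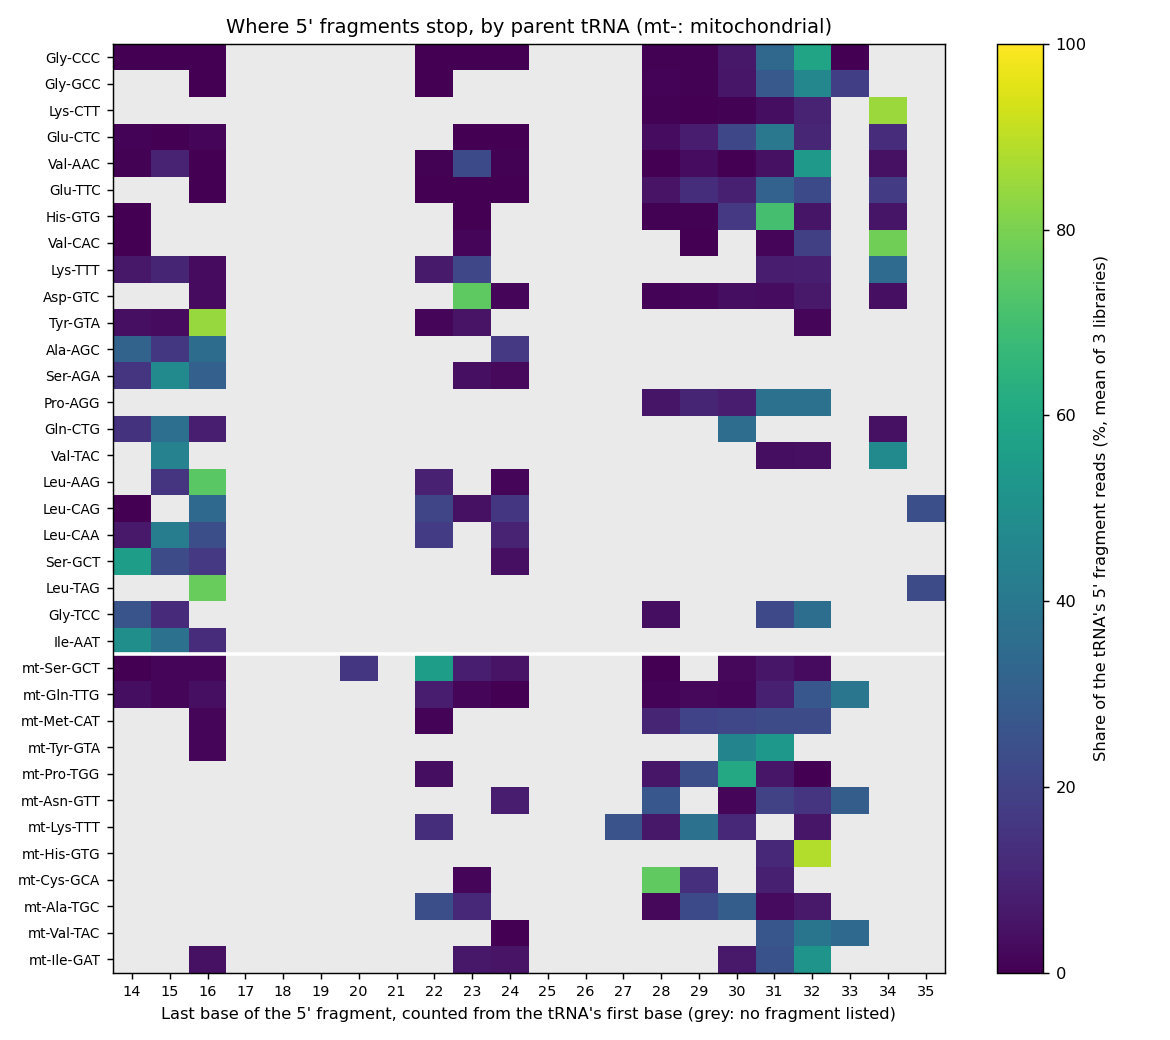
Share of each parent's 5' reads (percent, mean of the 3 saline libraries) by the base at which the fragment ends, for the 35 parents with at least 50 such reads; grey marks ends with no listed fragment. Gly-CCC, Gly-GCC and Val-AAC peak at base 32, Glu-CTC and His-GTG at base 31, Lys-CTT and Val-CAC at base 34, and mt-Ser-GCT at base 22.

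Over all 35 parents with at least 50 reads of the 5' kind, the preferred end lay at bases 27 to 32 in 17, at bases 14 to 24 in 12 and at bases 33 to 35 in 6. Base 32 was preferred by 8 parents, bases 31 and 16 by 5 each and base 34 by 4. The preferred end held over 50% of the reads in 16 parents and was the same in all 3 rats in 22. For parents with 1000 or more such reads, the 95% Wilson half-width of an end's share in 1 library was at most 5.25 percentage points. The list names only 1 end past base 32 for each of the 21 parents that have one; in nuclear parents it was base 34 in 11, base 33 in 5 and base 35 in 2. A shift between those 3 bases therefore could not be seen.

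Several nuclear parents stopped in the D-arm region instead. Asp-GTC, in which 76.9% ± 8.49 of reads were 5' fragments, ended at base 23 in 70.2%, 77.4% and 78.4% of them. Tyr-GTA ended at base 16 in 86.0%, 84.3% and 83.5%, and Leu-AAG at the same base in 68.4%, 77.3% and 77.2%. Ser-AGA ended at base 15 in 42.4%, 53.1% and 48.5%. Of the parents with at least 50 reads of the 5' kind, 11 of 23 nuclear ones and 1 of 12 mitochondrial ones preferred an end at bases 14 to 24. The most abundant nuclear fragments of these lengths came from Val-AAC: the one of 23 nt had 1911, 2966 and 3472 CPM, and the one of 15 nt had 1057, 1276 and 1309 CPM.

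The mean end of the longer 5' fragments moved little between rats. Over the 21 parents with at least 20 reads per library of 5' fragments of 27 nt or more, the mean end base differed between the highest and the lowest library by a median of 0.220 bases and at most by 0.609 bases. The lowest mean end fell in saline 2 for 12 parents, in saline 3 for 6 and in saline 1 for 3. For Gly-CCC the mean end base was 31.5, 31.4 and 31.6, and for Lys-CTT 33.6, 33.5 and 33.8.

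The parents that led the 3' fragments were not those that led the 5' fragments. Ala-CGC, with no 5' fragment in the list, gave 89.9%, 85.9% and 90.6% of its reads as 3' fragments. Together with Gln-CTG and Ala-AGC it supplied 39.97%, 42.4% and 38.1% of all 3' reads. Further parents led by 3' fragments included Leu-AAG (82.0% ± 4.37), Leu-CAA (82.3% ± 2.56), Cys-GCA (87.8% ± 3.88) and Phe-GAA (93.0% ± 5.29). Tyr-GTA (56.7% ± 1.46), Leu-CAG (57.2% ± 4.40), Ile-AAT (74.2% ± 4.13), Thr-AGT (68.2% ± 6.31) and Ala-TGC (76.3% ± 22.4) were led less strongly. For Trp-CCA and Ser-TGA only 3' fragments were listed, so all of their 81 and 67 reads were of that kind.

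The most abundant 3' fragment was the one of Ala-CGC from base 58 to base 75, 18 nt long, with 2642, 3419 and 2580 CPM. The 18 nt fragments of Leu-AAG (bases 68 to 85) and Ala-AGC (bases 58 to 75) followed, with 1046, 1386 and 1498 CPM and with 913, 1282 and 795 CPM. Saline 2 was highest for both alanine fragments but not for the leucine one. The most abundant 3' fragment of 19 to 22 nt was also from Ala-CGC, 22 nt long, with 302, 427 and 359 CPM.

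The 3' fragments fell into a few lengths. Of nuclear 3' reads, 57.2% ± 0.982 were 18 nt, 25.6% ± 1.77 were 17 nt and 14.5% ± 0.771 were 22 nt (SD, n = 3). The lengths of 19 to 21 nt, for which 24 nuclear fragments were listed, together held 2.91%, 2.93% and 2.35%. Of the 28 parents with at least 50 reads of the 3' kind, 12 were led by 18 nt, 8 by 22 nt, 7 by 17 nt and 1 by 40 nt, and 25 kept their leading length in all 3 rats. The preference went by parent: Ala-CGC had 77.0% ± 1.06 at 18 nt, Phe-GAA 71.3% ± 2.28 at 17 nt and Glu-TTC 92.5% ± 0.709 at 22 nt. Gln-CTG was split, with 50.3%, 53.9% and 57.5% at 17 nt. The 22 nt length also led in iMet-CAT and His-GTG, at 99.2% ± 1.44 and 95.3% ± 4.25 of their few 3' reads (163 and 148).

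**Figure D4:**
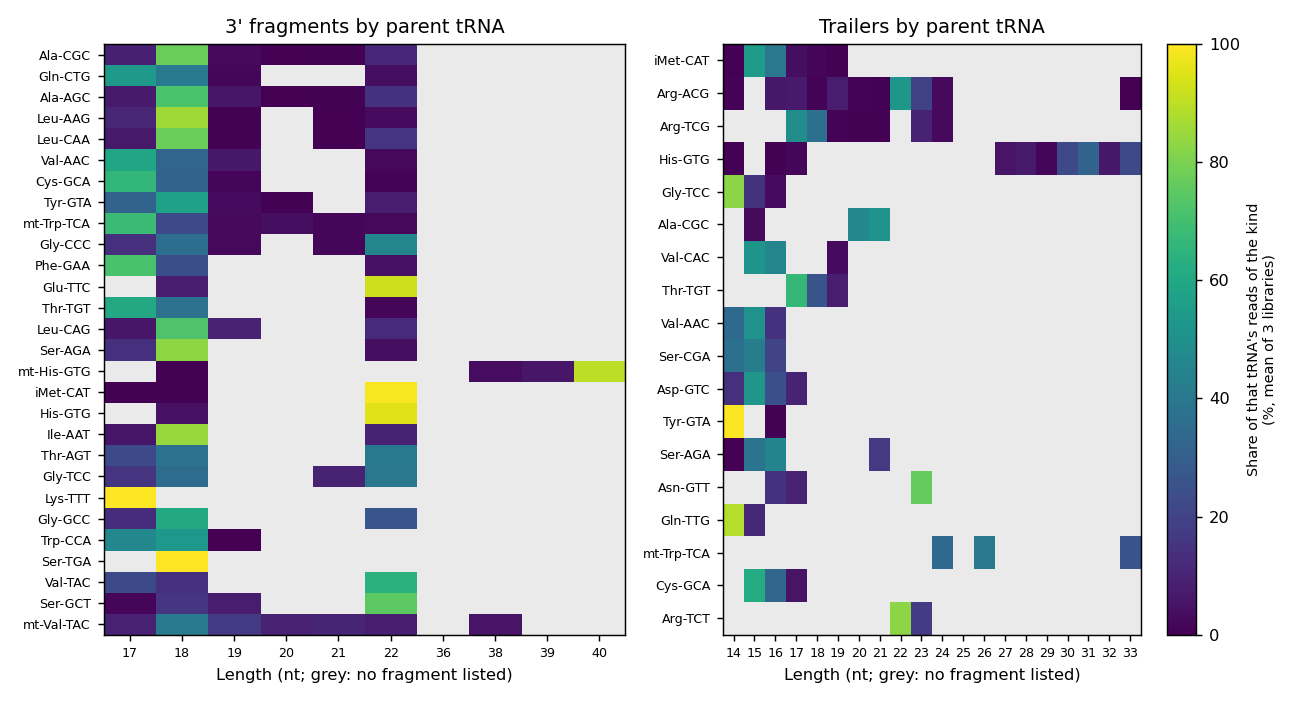
Share of reads (percent, mean of the 3 saline libraries) by fragment length within the 3' fragments and within the trailers of each parent, for the parents with at least 50 reads of that kind; grey marks lengths with no listed fragment. The 3' fragments gather at 17, 18 and 22 nt, and the trailers lead at lengths such as 15 nt for iMet-CAT and 22 nt for Arg-ACG.

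Trailers came from few precursors. iMet-CAT, Arg-ACG and Arg-TCG supplied 82.2%, 81.7% and 79.4% of all trailer reads, and iMet-CAT alone 54.2%, 54.3% and 36.1%. Each was read almost only as its trailer: iMet-CAT at 97.9% ± 0.193, Arg-ACG at 98.9% ± 0.279 and Arg-TCG at 97.5% ± 0.133 of its reads. No 5' fragment of Arg-ACG or Arg-TCG was listed. The 15 nt trailer of iMet-CAT had 5529, 8982 and 5266 CPM, and the 16 nt one had 4331, 6372 and 3598 CPM; both were highest in saline 2. The 22 nt trailer of Arg-ACG had 2167, 3381 and 4646 CPM and the 17 nt trailer of Arg-TCG had 491, 1094 and 1261 CPM, so for both arginine trailers saline 1 was lowest and saline 3 highest.

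The remaining parents led by trailers were rarer. Gly-TCC trailers were 14 nt in 84.0%, 78.6% and 85.1%. Ser-CGA was led by trailers at 61.1%, 89.6% and 60.4% of its 174 reads, Asn-GTT at 66.7%, 54.2% and 58.6% of its 181 reads and Arg-TCT at 82.5%, 76.5% and 94.1% of its 74 reads. His-GTG, a parent led by 5' fragments, had trailers up to 33 nt long, with 31 nt in front at 29.5%, 38.7% and 27.7%. Of the 18 parents with at least 50 trailer reads, 11 kept their leading trailer length in all 3 rats. A trailer's length in these data is the distance from the end of the mature tRNA to the last base read, within the listed window of 14 to 33 nt.

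Internal fragments, of 14 to 15 nt, all lay around the anticodon loop, from base 27 to base 44. The most abundant was that of Gln-CTG from base 28 to base 41, with 237, 117 and 213 CPM, lowest in saline 2. Gln-CTG supplied 70.9%, 41.2% and 49.0% of all internal reads. The sole mitochondrial one, from mt-Leu-TAA, had 1 read in saline 2 and none in the other rats.

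The leading kind differed between rats in 5 parents. Ser-AGA was led by 3' fragments in saline 1 (44.9%, against 39.7% for 5' fragments) and by 5' fragments in saline 2 and 3 (40.8% and 59.6%). Thr-TGT was led by 3' fragments in saline 1 and 2 (55.8% and 46.9%) and by trailers in saline 3 (54.1%). mt-Val-TAC was led by 5' fragments in saline 1 and 3 (66.7% and 62.9%) and by 3' fragments in saline 2 (59.0%). Gln-TTG and Thr-CGT, with 98 and 54 reads, were led by trailers in only 2 of the 3 rats. Thr-CGT had just 3 reads in saline 2, where trailers led. Over the 3 libraries it had 32 reads of the 3' kind and 22 of trailers, so 3' fragments led with reads pooled. These 5 parents had 54 to 611 reads each, and whether the changes of order exceed counting error was not tested.

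Mitochondrial tRNAs gave 1.36%, 2.32% and 2.24% of listed reads (1.97% ± 0.534) from 135 of the 615 fragments. Their leading parent was mt-Ser-GCT, a tRNA known for lacking the D arm. Only 5' fragments of mt-Ser-GCT were listed, so it was read wholly as that kind. Its 22 nt fragment had 2367, 3290 and 2842 CPM and held 58.2%, 57.0% and 52.9% of its reads. This was the highest mitochondrial fragment in each rat. Over all mitochondrial 5' reads 30.4% ± 1.28 were 22 nt, against 0.0615% ± 0.00675 of nuclear 5' reads. The 22 nt fragment of mt-Ser-GCT alone supplied 887, 508 and 586 of the 972, 564 and 634 mitochondrial reads of that length. Most nuclear 5' reads came from Gly-CCC, which peaked at base 32. Of 12 mitochondrial parents with at least 50 reads of the 5' kind, only 1 preferred an end at bases 14 to 24. The most abundant mitochondrial fragment of 14 to 16 nt also came from mt-Ser-GCT, with 107, 117 and 63.0 CPM at 16 nt. mt-Gln-TTG ended mainly at bases 33 and 32, with 592, 1082 and 698 CPM and with 454, 803 and 407 CPM. mt-Met-CAT was spread over bases 29, 30, 31 and 32, with 20.1% to 23.1% on average at each, and its highest mean, at base 31, led in only 1 of the 3 rats.

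Only 2 mitochondrial parents were led by 3' fragments, and their fragments were of different lengths. mt-Trp-TCA gave 91.5%, 88.0% and 83.5% of its reads as 3' fragments, mostly 17 nt. That fragment, bases 53 to 69, had 435, 887 and 369 CPM, and saline 2 stood above the other rats. Its 20 nt fragment, bases 50 to 69, had 29.4, 38.9 and 19.4 CPM. mt-His-GTG gave 68.3%, 59.7% and 58.3% as 3' fragments, mostly one of 40 nt from base 32 to base 71, with 195, 266 and 310 CPM. The 5' fragments of mt-His-GTG that end at base 32 had 90.7, 181 and 209 CPM, and those that end at base 31, next to the start of the 40 nt fragment, had 10.7, 19.4 and 33.9 CPM. The 3' fragments of 36 to 40 nt, as long as the whole tRNA from the anticodon loop on, numbered 7 in the list, all of them mitochondrial. The longest listed fragments were 40 nt. Mitochondrial 3' fragments ended at bases 67 to 74 and nuclear ones at bases 74 to 87. Nuclear pieces of this kind could thus be too long for the list, and their level is not known.

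Groups of tRNAs that share a structure or an origin were read as follows. Nuclear Leu and Ser tRNAs, which carry a long variable arm, held 0.670%, 0.989% and 1.24% of listed reads over 74 fragments. Of their reads 63.0% ± 5.28 were 3' fragments, against 3.28% ± 0.686 over all listed fragments and 15.1% ± 1.39 over those of amino acids other than glycine. The parents of this group were mixed: Leu-AAG, Leu-CAA, Leu-CAG and Ser-TGA were led by 3' fragments, Leu-TAG, Ser-AGA and Ser-GCT by 5' fragments and Ser-CGA by trailers. The nuclear tRNAs whose genes can hold an intron (Tyr-GTA, Leu-CAA, Ile-TAT and Arg-TCT) held 0.440%, 0.516% and 0.622% over 35 fragments, with 66.4% ± 2.85 as 3' fragments. Of their 2295 reads Tyr-GTA had 1239 and Leu-CAA 979. Arg-TCT went the other way, with 84.4% ± 8.97 of its 74 reads as trailers, and Ile-TAT had 3 reads. Mitochondrial tRNAs encoded on the light-strand side held 0.412%, 0.723% and 0.632%, with 97.4% ± 1.02 as 5' fragments, and the other mitochondrial tRNAs 0.943%, 1.60% and 1.60%, with 83.1% ± 4.54. The 5' fragments of 6 tRNAs known from stress or from blood plasma (Gly-GCC, Glu-CTC, Val-CAC, Val-AAC, Lys-CTT and His-GTG) held 15.1%, 15.8% and 19.9% over 65 fragments. Gly-CCC, at 71.8% ± 4.86 of listed reads over all kinds, was not in this group. Since the split of reads between the names Gly-CCC and Gly-GCC is uncertain, so is the share of the group. Blood left in the tissue was not measured, and its part in those levels was not tested.

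The 3 libraries were alike in the ranking of fragments, with differences in level beyond counting error. With 1 library per rat, differences between rats and between library preparations cannot be told apart. Across the 615 fragments, Pearson's r of log2(CPM + 1) was 0.882 between saline 1 and 2, 0.895 between saline 1 and 3 and 0.848 between saline 2 and 3. Spearman's rho was 0.885, 0.891 and 0.856 for the same pairs. Fragments share parents and libraries and are not independent, so these values are descriptions. The chi-square per degree of freedom of the reads was 11.7, 16.8 and 11.04, where sampling of reads alone would give about 1. The libraries thus differed by more than the sampling of reads from 1 pool would give, if reads are taken as independent.

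The level of a single fragment usually varied more than read counting alone would give. For the 164 fragments with a mean of at least 100 CPM, the coefficient of variation (CV) over the 3 rats had a median of 28.3%, against 12.6% from counting reads alone. It exceeded the counting CV by more than 2 times in 98 fragments and was at or below it in 15. By kind the median was 29.7% for 100 fragments of the 5' kind, 20.98% for 37 of the 3' kind and 36.1% for 26 trailers. Saline 2 held the highest value of 77 of the 164 fragments, saline 3 of 57 and saline 1 of 30. Glycine fragments summed to 579115, 476285 and 397685 CPM in saline 1, 2 and 3, and the part of this in the order of the other fragments was not tested.

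**Figure D5:**
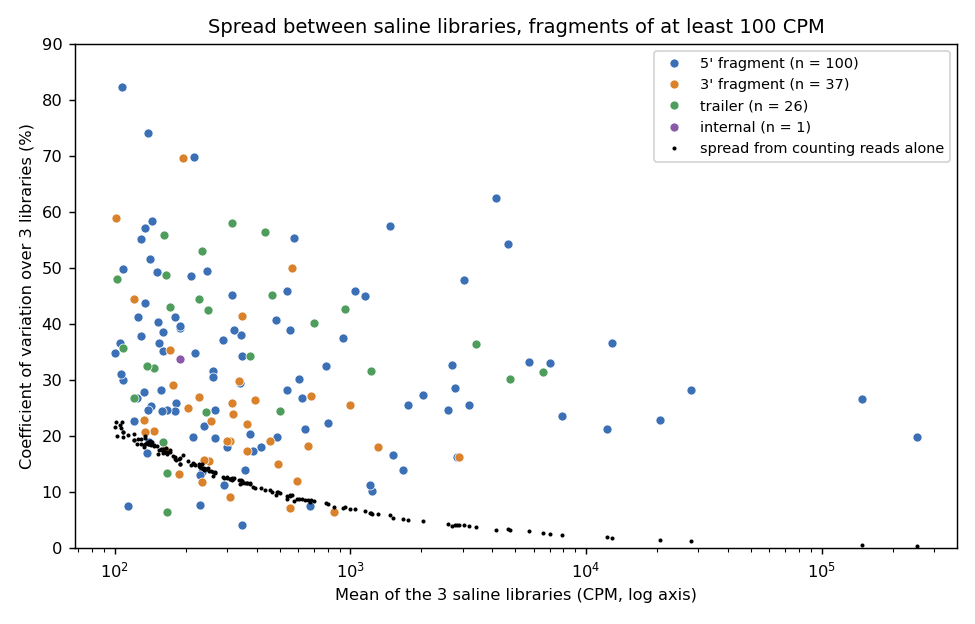
Coefficient of variation over the 3 saline libraries (percent) against mean level (CPM, log axis) for the 164 fragments of at least 100 CPM, coloured by kind; black dots mark the spread expected from counting reads. Most points lie above the black dots, with a median of 28.3% against 12.6%.

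The steadiest and the least steady fragments were taken by rank of the CV. The 16 nt 5' fragment of Tyr-GTA had 336, 363 and 339 CPM, a CV of 4.17%. The 18 nt 3' fragments of Leu-CAA (889, 868 and 786 CPM) and Tyr-GTA (520, 538 and 596 CPM), a 30 nt trailer of His-GTG (160, 162 and 179 CPM) and the 30 nt 5' fragment of Gln-CTG (123, 110 and 107 CPM) were nearly as even. Their spread was no larger than counting alone would give. At the other end, a 31 nt 5' fragment of Glu-TTC had 69.4, 207 and 43.6 CPM, a CV of 82.4%. The 16 nt and 15 nt 5' fragments of Ser-AGA had 74.7, 84.2 and 257 CPM and 96.1, 168 and 388 CPM, both high in saline 3. The 18 nt 3' fragment of mt-Trp-TCA had 120, 350 and 112 CPM, high in saline 2. The 34 nt 5' fragment named Lys-CTT-2 had 3602, 1865 and 6963 CPM, and the one named Lys-CTT-1 had 13635, 7849 and 17239 CPM, both lowest in saline 2 and highest in saline 3.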

How the data were processed

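Small RNA libraries from the hippocampus of 6 rats were deposited as lists of named tRNA fragments, and the 3 saline libraries were used. Per the labels' protocol, adapter-ligated products of 134 to 160 bp were cut from a gel, which limits fragment length. Trimming and mapping tools named in the submitters' processing notes were cutadapt and Bowtie, beside FastQC, with no version. Genome build, tRNA annotation and any treatment of modified bases, which can stop reverse transcription, were not given in the sources used here. Deposited values were CPM, per the file headers of saline 1 and 2; the header of saline 3 names no unit, and its values were read as CPM because they step in the same way. Which reads the authors' library total holds is not stated. In each library 100% of values lay within 0.001 reads of a whole number once divided by the value of 1 read, so reads were recovered. A count test was not run, since 1 group was described.

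Kind, length and parent were read from each name; suffixes such as M2 are not explained in the files. Shares were computed per library, then given as mean ± SD (n = 3), with 95% Wilson intervals. The labels number the rats separately and name no pooling. Parents under 50 reads (15 of 67) were counted but not described. Named fragments were the 10 with the highest mean CPM, the most abundant of each kind and length class per genome, and the 5 smallest and 5 largest CVs at 100 CPM or more. Named parents were the 10 highest, those not led by 5' fragments and those whose leading kind differed between rats; other parents are named as examples, after their values were seen. The members and lists were chosen with earlier results of these data known. Calculations used Python 3.11.15, numpy 2.4.6, pandas 2.3.3 and scipy 1.17.1, with figures from matplotlib 3.10.9, and were tested on simulated data.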

Additional observations from a re-analysis of the deposited data

How the results depend on the processing

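Of the values recomputed under other settings, 107 stayed within the spread between rats (or within 1.5 times, for counts) and 29 moved further. Over the whole library total in place of listed reads, the shares were 56.2% for 5' fragments, 2.51% for trailers, 1.96% for 3' fragments and 0.0397% for internal fragments. On that base they were 43.9% for Gly-CCC, 4.46% for Gly-GCC, 1.46% for Glu-CTC, 1.44% for Val-AAC, 1.23% for iMet-CAT and 1.17% for mitochondrial tRNAs, which follows from the larger denominator. Without glycine the shares of the kinds were 64.9%, 19.6%, 15.1% and 0.324%. Counting fragments in place of reads gave 49.3%, 19.02%, 29.6% and 2.11%, so 3' fragments then ranked above trailers. The leading kind was then the same in 41 of 52 parents, and in 51 of 52 with reads pooled, where Thr-CGT changed. The number of parents led by trailers was 9 of 52. It was 15 when grouped by isodecoder name, beside 39 led by 5' and 22 by 3' fragments. It was 4 of 36 at a minimum of 200 reads, where all 36 kept their leading kind, so the lower number comes from fewer parents. With 5' fragments of at least 28 nt alone, 0 parents preferred an end at bases 14 to 24, and with names beginning tRF alone, 0 preferred bases 33 to 35, both by construction. The mean Pearson's r was 0.875, and it was 0.848 with a pseudocount of 0.5, 0.942 with 10, 0.918 over fragments averaging 20 CPM or more and 0.923 over fragments read in all 3 libraries. The mean chi-square per degree of freedom was 13.2, and 19.8 over fragments averaging 20 CPM or more.

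Leaving out each rat in turn gave 91.3% to 93.0% for 5' fragments, 3.85% to 4.96% for trailers, 3.03% to 3.67% for 3' fragments and 0.0545% to 0.0733% for internal fragments. Gly-CCC held 69.3% to 74.1%, Gly-GCC 7.05% to 7.63%, Lys-CTT 2.49% to 3.99%, Glu-CTC 2.22% to 2.77%, Val-AAC 2.28% to 2.42%, iMet-CAT 1.68% to 2.29% and mitochondrial tRNAs 1.80% to 2.28%. Parents led by 5' fragments numbered 24 to 26, by 3' fragments 13 to 17 and by trailers 8 each time. Fewer parents then reached 50 reads, 46, 50 and 49 without saline 1, 2 and 3, and 45, 49 and 48 of them kept their leading kind. The Gly-CCC share at base 32 was 55.7% to 61.7%, and 10 to 11 parents preferred bases 14 to 24, 13 to 17 preferred bases 27 to 32 and 5 to 7 preferred bases 33 to 35. Pearson's r was 0.848 to 0.895, the chi-square 11.04 to 16.8 and the median CV 23.1% to 26.4%. No paired analysis was possible because only the saline group was described, which leaves its replicate numbers no second group to pair with. Differences between kinds within the same rats were not tested.

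The reads of saline 2 and 3 were fewest, and 1 read there was worth 6.48 and 4.85 CPM, against 2.67 CPM in saline 1. Fragments under 20 CPM in every library are outside the list. Whether near-identical tRNAs share reads, and whether the gel slice or base modifications shape the lengths, was not tested.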

Other observations

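Names that carry a base change numbered 9 and held 0.0299%, 0.0618% and 0.0855% of listed reads in saline 1, 2 and 3. Of their reads 91.7% ± 2.90 were trailers (SD, n = 3), with Arg-ACG in front, and 1 was the most abundant mitochondrial trailer, 26 nt long, from mt-Trp-TCA, with 16.01, 58.3 and 43.6 CPM.

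Of the 15 fragments with no read in any saline library, 9 were mitochondrial, against 135 of all 615. By kind 9 were 3' fragments, 4 were 5' fragments and 2 were trailers, against 182, 303 and 117 of all 615. All 15 are in the list only because nicotine libraries reached 20 CPM. Their make-up thus follows from how the list was made and is no trait of the saline repertoire.

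Elongator Met-CAT, which inserts methionine within proteins, had 2 listed fragments and 25 reads in all, whereas the initiator iMet-CAT had 12 fragments and 8508 reads.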
